A study of Homo sapiens with 12 samples.

Results

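Messenger RNA of 37 genes of autophagy and the lysosome was compared between neuroblastoma cells treated with STM2457 and cells given DMSO, its solvent. The genes were chosen by name for what their products do, with earlier results of these data known. They were 3 cargo receptors, 4 ATG8 proteins, 8 genes of initiation and nucleation and 6 of conjugation. The others were 3 MiT/TFE transcription factors, 3 lysosomal membrane proteins, and 10 lysosomal enzymes and saposins. All 37 were present among the 19923 protein-coding genes counted. STM2457 inhibits METTL3, the enzyme that places m6A on mRNA. Cultures of the human lines SK-N-BE2 and NGP, both with amplified MYCN and labelled wild type, were grown in RPMI1640 and exposed for 6 days, at 12 µM STM2457 in SK-N-BE2 and 1 µM in NGP. Each line had 3 libraries with STM2457 and 3 with DMSO, 12 in all. Nothing in the labels says that the replicates were separate cultures, so the p-values measure the spread between these libraries, which may be technical. Dose and sequencing run changed with the line, and the 3 cannot be told apart.

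Autophagy encloses cell material in a double membrane, the autophagosome, which fuses with the lysosome, where acid hydrolases digest the content. The ULK complex starts the process, the PI3-kinase complex of BECN1 marks the membrane, and 2 ubiquitin-like conjugation reactions attach ATG8 proteins such as LC3B to it. Cargo receptors bind both ATG8 proteins and the material to be removed. The transcription factors TFEB, TFE3 and MITF switch on many lysosomal and autophagy genes through a sequence called the CLEAR element, and mTORC1 holds them in the cytoplasm when nutrients are plentiful.

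Libraries held 47242379 to 58159937 counted reads, and levels are given as CPM, the usual per-library scaling of read counts to a fixed total, with TMM factors over all 12 libraries. The first NGP DMSO library stood apart from the other 2 of its group, at -29.72 on the fourth principal component against 20.26 and 9.27, so NGP results are also given without it. Of the sympathetic neuroblast markers, PHOX2A, HAND2, GATA3, ISL1 and DBH were at a mean of 1 CPM or more in every group, while TH was at 0.514 CPM in NGP DMSO. Summed markers of leukocytes, endothelium, epithelium and Schwann cells reached at most 11.2 CPM in any library, that of endothelium in SK-N-BE2 DMSO. METTL3 mRNA rose with STM2457 in SK-N-BE2 (log2 fold change 0.52, adjusted p = 0.000106) and in NGP (log2 fold change 0.92, adjusted p = 0.0003).

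In SK-N-BE2, 20 of the 37 genes changed at an adjusted p under 0.05, 7 higher and 13 lower with STM2457. That share, 54.1%, was close to the 54.7% called among the 14013 genes tested, of which 26.9% were higher and 27.8% lower. In NGP, 16 of 36 tested genes changed, 8 in each direction, or 44.4% against 41.7% of 13610 genes, with 19.4% higher and 22.2% lower. The set as a whole therefore changed about as often as other genes. The median log2 fold change was -0.07 over the 37 genes and -0.02 over all genes in SK-N-BE2. In NGP these medians were 0.06 and -0.03. Without the first NGP DMSO library, 11 of the 36 were higher and 10 lower, or 58.3% called against 57.3% of all genes. All 16 remained, with NBR1, ULK1, CTSD, CTSL and GAA added. Log2 fold changes in NGP were then -1.94 for MAP1LC3B, -1.73 for OPTN, -0.89 for ATG3, 0.95 for MCOLN1, 1.06 for GLA, 1.25 for CTSA, 0.66 for LAMP1, 0.67 for HEXA and 0.72 for GUSB.

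In all, 5 genes rose in both lines (ATG16L1, LAMP1, MCOLN1, GLA and GUSB) and 5 fell in both (TFEB, MAP1LC3B, OPTN, ATG13 and ATG7). Of the 12952 genes tested in both lines, 10.5% rose in both, 10.8% fell in both and 4.96% were called in opposite directions. None of the 36 genes was called in opposite directions by edgeR (0 at an unadjusted p under 0.05 and 0 by DESeq2). Another 11 genes were called in neither line. The STM2457 and DMSO libraries did not overlap for 23 of the 37 genes in SK-N-BE2 (62.2% of all genes) and, for NGP, 19 of 36 (54.7% of all genes). Every called gene was among them, 20 and 16, while 52.9% and 41.4% of all genes were both called and free of overlap.

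**Figure D1:**
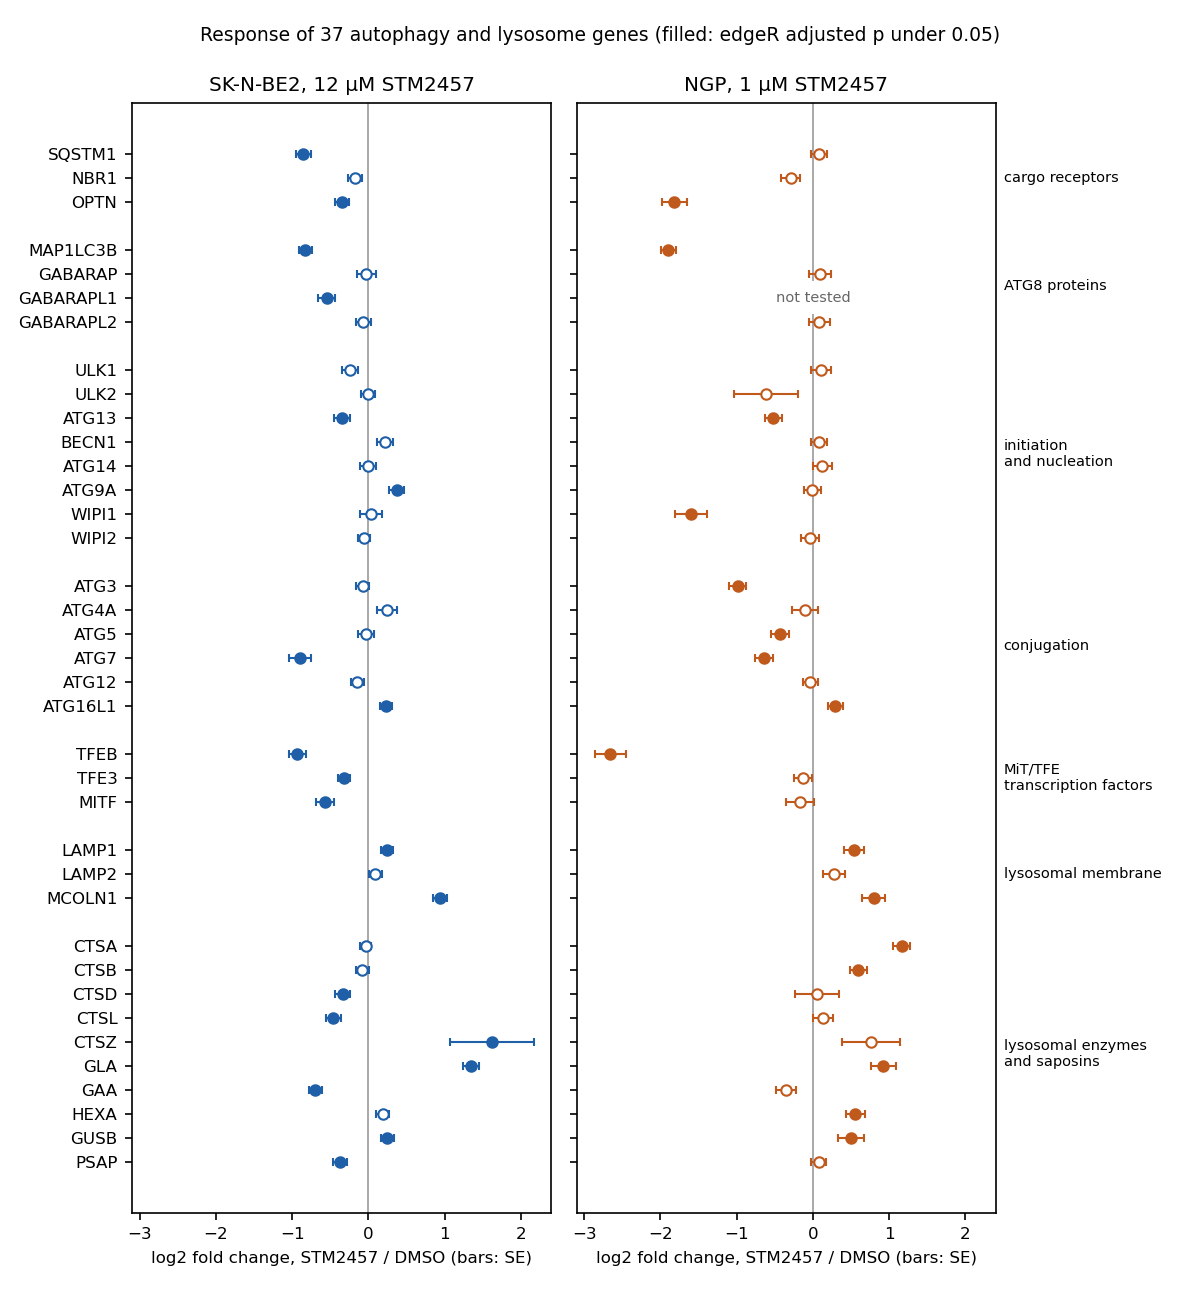
Log2 fold change (STM2457 over DMSO, bars: SE) of the 37 genes in SK-N-BE2 and NGP, ordered by role, with filled points at an edgeR adjusted p under 0.05. TFEB, MAP1LC3B and OPTN lie farthest below 0 in NGP, at -2.66, -1.90 and -1.82, and GLA and MCOLN1 lie above 0 in both lines.

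All 3 MiT/TFE factors fell with STM2457 in SK-N-BE2 (27.8% of all genes fell), and TFEB fell in NGP (22.2% of all genes fell). TFEB (chr6:41683978-41736259, minus strand, GRCh38) had 29.2, 30.1 and 32.8 CPM with DMSO and 18.9, 14.6 and 15.9 with STM2457 in SK-N-BE2. In NGP it had 31.2, 20.9 and 20.8 CPM with DMSO and 4.32, 3.93 and 3.28 with STM2457. The groups did not overlap in either line, and the first NGP DMSO library was the highest of the 12 but for the third SK-N-BE2 DMSO library. The fall was 1.91-fold in SK-N-BE2 (a log2 fold change of -0.93, SE 0.11, adjusted p = 1.22e-05) and 6.32-fold in NGP (-2.66, SE 0.21, adjusted p = 4.1e-05). Without the first NGP DMSO library the NGP value of TFEB was -2.44.

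TFE3, which binds the same element as TFEB, had 65.8, 64.6 and 65.0 CPM with DMSO and 55.3, 52.1 and 53.1 with STM2457 in SK-N-BE2 (a log2 fold change of -0.32, SE 0.08, adjusted p = 0.0032). MITF, known best as the melanocyte regulator, had 11.5, 13.2 and 11.1 CPM with DMSO and 7.77, 8.14 and 8.74 with STM2457 there (-0.57, SE 0.12, adjusted p = 0.00128). Neither was called in NGP, at -0.13 for TFE3 (adjusted p = 0.413) and -0.17 for MITF (adjusted p = 0.5). The difference between lines was called for TFEB and for neither of the other two. The summed level of the 3 factors was 106 to 109 CPM with DMSO and 74.9 to 81.9 with STM2457 in SK-N-BE2, and 49.8 to 60.2 and 29.2 to 33.2 CPM in NGP. In bulk RNA, fewer cells that express a gene and less RNA per cell cannot be told apart.

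Among the cargo receptors, which link ubiquitinated cargo to ATG8 proteins, OPTN fell in both lines and SQSTM1 in SK-N-BE2. SQSTM1 (chr5:179806398-179838078, plus strand), which encodes p62, had 105, 91.1 and 114 CPM with DMSO and 60.1, 54.2 and 62.4 with STM2457 in SK-N-BE2. In NGP it had 32.0, 29.9 and 32.5 CPM with DMSO and 32.2, 36.0 and 31.5 with STM2457, and the groups overlapped. SK-N-BE2 thus showed a log2 fold change of -0.85 (SE 0.10, adjusted p = 8.62e-06), and NGP one of 0.08 (SE 0.11, adjusted p = 0.575).

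OPTN (chr10:13099449-13138308, plus strand), the receptor optineurin, fell more in NGP. Its levels were 37.5, 33.2 and 32.6 CPM with DMSO and 27.2, 27.9 and 27.9 with STM2457 in SK-N-BE2, a log2 fold change of -0.35 (SE 0.09, adjusted p = 0.00507). In NGP they were 21.1, 16.9 and 18.4 CPM with DMSO and 6.22, 4.54 and 5.19 with STM2457, a 3.53-fold fall (-1.82, SE 0.16, adjusted p = 8.53e-05). NBR1, the third receptor, was at -0.17 in SK-N-BE2 (adjusted p = 0.116) and -0.29 in NGP (adjusted p = 0.1), and was called lower in NGP without the first DMSO library.

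The ATG8 proteins are the ubiquitin-like proteins attached to the autophagosome membrane. MAP1LC3B (chr16:87383953-87404779, plus strand), which encodes LC3B, the usual marker of autophagosomes, had 221, 260 and 229 CPM with DMSO and 140, 137 and 134 with STM2457 in SK-N-BE2. NGP values were 186, 211 and 195 CPM with DMSO and 52.8, 55.4 and 50.6 with STM2457. No STM2457 library reached the lowest DMSO library of its line. The fall was 1.77-fold in SK-N-BE2 (a log2 fold change of -0.83, SE 0.09, adjusted p = 3.75e-06) and 3.72-fold in NGP (-1.90, SE 0.10, adjusted p = 6.57e-06).

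GABARAPL1 (chr12:10212458-10223128, plus strand) had 16.1, 16.3 and 13.7 CPM with DMSO and 10.5, 10.7 and 11.3 with STM2457 in SK-N-BE2. Its log2 fold change there was -0.54 (SE 0.11, adjusted p = 0.000968), a call lost in the joint fit (adjusted p = 0.0632). In NGP GABARAPL1 was almost absent, with 4, 12 and 2 reads in the DMSO libraries and 0 in each STM2457 library. It did not pass the filter on low counts there. Against a chosen floor of 3 reads over the group it was 5.78-fold lower. That is no firm bound, since a fragment can add 2 to a count. GABARAP and GABARAPL2, the close relatives, were not called: GABARAP was at -0.03 and 0.09 (adjusted p = 0.866 and 0.63) and GABARAPL2 at -0.07 and 0.08 (adjusted p = 0.591 and 0.672). The 4 genes together summed to 322 to 384 CPM with DMSO and 239 to 241 with STM2457 in SK-N-BE2, and to 276 to 281 and 138 to 141 CPM in NGP.

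**Figure D2:**
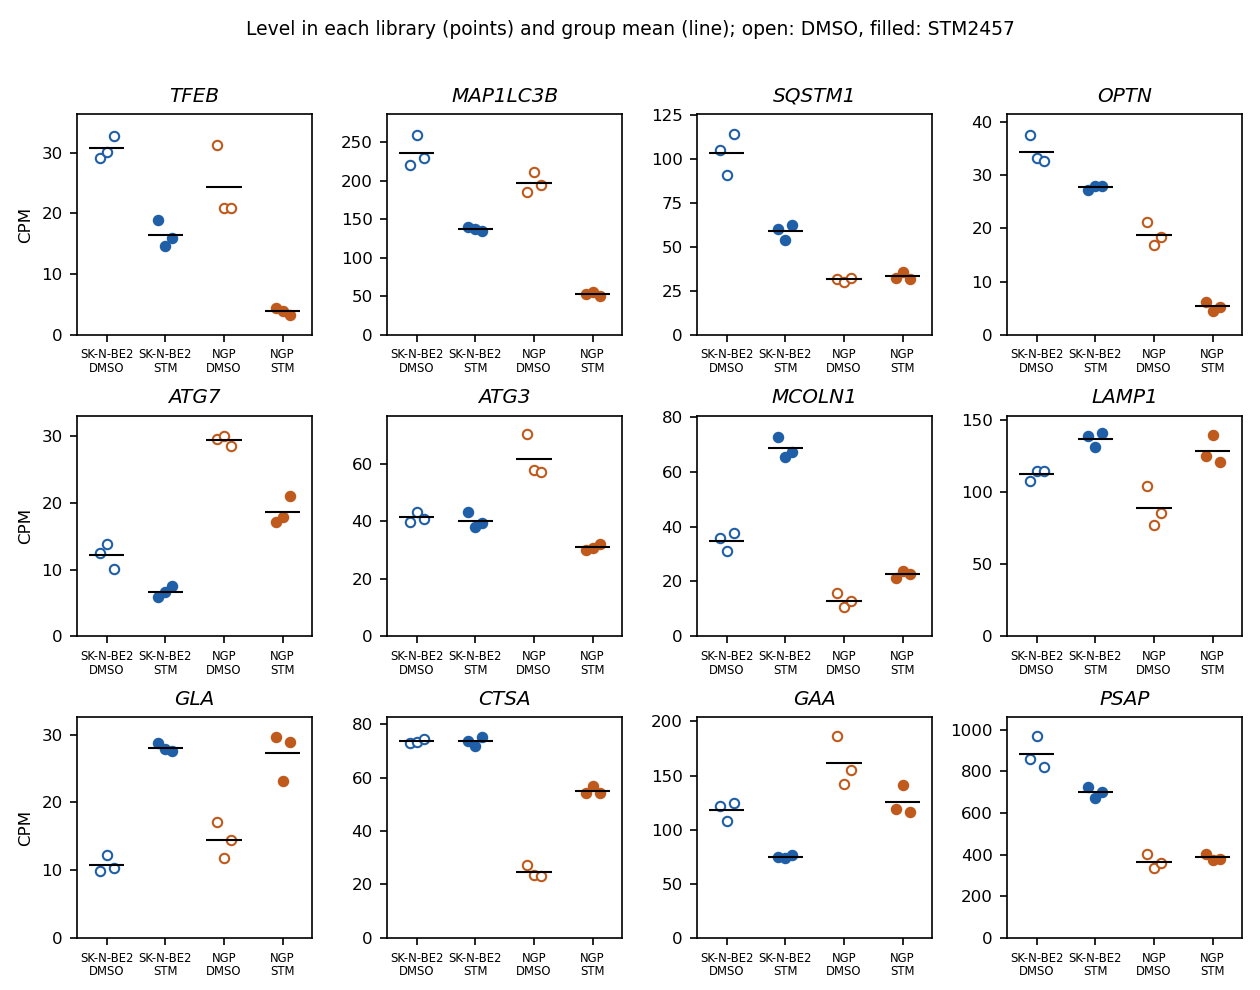
Level (CPM, axes from 0) of 12 of the genes in each of the 12 libraries, with a bar at each group mean. TFEB, MAP1LC3B and OPTN are lower with STM2457 in both lines, MCOLN1, LAMP1 and GLA are higher in both, and SQSTM1, ATG3, CTSA, GAA and PSAP separate by treatment in a single line or more strongly in one.

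Of the 8 initiation and nucleation genes, 1 rose and 1 fell in SK-N-BE2 (26.9% and 27.8% of all genes). In NGP 2 fell (22.2% of all genes). ATG13, a subunit of the ULK kinase complex, had 68.8, 82.0 and 63.9 CPM with DMSO and 62.5, 54.7 and 56.1 with STM2457 in SK-N-BE2, and 126, 107 and 103 CPM with DMSO and 82.2, 74.4 and 76.6 with STM2457 in NGP. Its log2 fold change was -0.35 (SE 0.10, adjusted p = 0.0107) and -0.52 (SE 0.11, adjusted p = 0.00584). The SK-N-BE2 call of ATG13 was lost without STM2457 replicate 2 or 3. ATG9A, a membrane protein that carries lipid to the growing autophagosome, rose in SK-N-BE2, from 44.5, 35.8 and 35.7 CPM to 53.4, 48.7 and 52.1 (0.37, SE 0.10, adjusted p = 0.006).

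WIPI1 (chr17:68420948-68457513, minus strand), which binds the lipid made by the PI3-kinase complex, fell in NGP. It had 5.31, 7.32 and 5.02 CPM with DMSO and 1.97, 2.14 and 1.71 with STM2457 there, a 3.03-fold fall (log2 fold change -1.60, SE 0.21, adjusted p = 0.000639). In SK-N-BE2 it had 5.11, 4.51 and 5.29 CPM with DMSO and 5.59, 5.02 and 5.06 with STM2457 (0.04, SE 0.15, adjusted p = 0.852). WIPI1 shares 24.4% of its exon length with ARSG, which had a log2 fold change of -1.23 in NGP (adjusted p = 0.00518). The other 5, ULK1, ULK2, BECN1, ATG14 and WIPI2, were not called in either line; ULK2 had 85 reads over the NGP DMSO libraries and 53 over those with STM2457.

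Of the 6 conjugation genes, 1 rose and 1 fell in SK-N-BE2 (26.9% and 27.8% of all genes), and 1 rose and 3 fell in NGP (19.4% and 22.2%). The difference between lines was called for 1 of the 6, ATG3 (30.9% of all genes). ATG7 (chr3:11272309-11557665, plus strand), the enzyme that activates ATG12 and the ATG8 proteins, had 12.5, 13.8 and 10.1 CPM with DMSO and 5.92, 6.61 and 7.54 with STM2457 in SK-N-BE2 (a log2 fold change of -0.90, SE 0.14, adjusted p = 0.000168). The levels in NGP were 29.6, 30.0 and 28.6 CPM with DMSO and 17.2, 17.9 and 21.0 with STM2457 (-0.65, SE 0.12, adjusted p = 0.00284). ATG7 shares 18.1% of its exon length with VGLL4, which moved the opposite way, at 1.10 in SK-N-BE2 and 0.69 in NGP.

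ATG3 (chr3:112532510-112562046, minus strand), which passes ATG8 proteins on to the lipid, had 70.4, 57.7 and 57.1 CPM with DMSO and 30.2, 30.9 and 32.1 with STM2457 in NGP (log2 fold change -0.99, SE 0.12, adjusted p = 0.000334). In SK-N-BE2 the groups overlapped, with 39.9, 43.3 and 40.9 CPM with DMSO and 43.3, 38.1 and 39.4 with STM2457 (-0.08, SE 0.09, adjusted p = 0.491). ATG5, a part of the complex that guides lipidation, fell in NGP at -0.43 (adjusted p = 0.0205), a call lost without DMSO replicate 3 or STM2457 replicate 2 or 3. ATG16L1, its partner, rose by 0.23 in SK-N-BE2 (adjusted p = 0.0291) and 0.29 in NGP (adjusted p = 0.0428). Of the 15 alternative fits, 6 in SK-N-BE2 and 7 in NGP lost that ATG16L1 call. ATG4A and ATG12 were not called in either line.

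At the lysosomal membrane, LAMP1 and MCOLN1 rose in both lines. MCOLN1 (chr19:7522624-7534009, plus strand), the lysosomal calcium channel TRPML1, had 35.8, 31.3 and 37.7 CPM with DMSO and 72.8, 65.5 and 67.4 with STM2457 in SK-N-BE2. Levels in NGP were 15.8, 10.6 and 12.8 CPM with DMSO and 21.4, 23.7 and 22.7 with STM2457. The rise was 1.92-fold in SK-N-BE2 (a log2 fold change of 0.94, SE 0.09, adjusted p = 2.4e-06) and 1.73-fold in NGP (0.79, SE 0.16, adjusted p = 0.00426).

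LAMP1 (chr13:113297239-113323672, plus strand), an abundant glycoprotein of the lysosomal membrane, had 108, 115 and 115 CPM with DMSO and 139, 131 and 141 with STM2457 in SK-N-BE2 (a log2 fold change of 0.25, SE 0.08, adjusted p = 0.015). NGP libraries had 104, 77.2 and 85.3 CPM with DMSO and 125, 139 and 121 with STM2457 (0.53, SE 0.13, adjusted p = 0.0107). The SK-N-BE2 call of LAMP1 was lost without STM2457 replicate 1 or 3. LAMP2 was not called, at 0.09 (adjusted p = 0.406) and 0.28 (adjusted p = 0.154).

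Of the 10 lysosomal enzymes and saposins, 3 rose and 4 fell in SK-N-BE2 (26.9% and 27.8% of all genes). In NGP 5 rose (19.4% of all genes) and none fell (edgeR; 1 lower at an unadjusted p under 0.05 and 1 by DESeq2, both GAA; 22.2% of all genes). Without the first NGP DMSO library 7 rose and 1 fell (of all 13776 genes tested, 3805 rose and 4092 fell). The difference between lines was called for 4 of the 10 (30.9% of all genes). GLA (chrX:101393273-101408012, minus strand), alpha-galactosidase A, had 9.82, 12.2 and 10.3 CPM with DMSO and 28.7, 27.9 and 27.6 with STM2457 in SK-N-BE2, a 2.54-fold rise (log2 fold change 1.34, SE 0.11, adjusted p = 4.2e-07). The NGP levels were 17.1, 11.8 and 14.4 CPM with DMSO and 29.7, 23.2 and 29.0 with STM2457 (0.92, SE 0.17, adjusted p = 0.00283). GUSB, beta-glucuronidase, rose by 0.25 in SK-N-BE2 (adjusted p = 0.0269) and 0.50 in NGP (adjusted p = 0.0404), calls that 7 and 5 of 15 alternative fits lost.

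CTSA (chr20:45890144-45898820, plus strand), a protease that also protects other hydrolases, was not called in SK-N-BE2, with 72.9, 73.1 and 74.4 CPM with DMSO and 73.7, 71.8 and 75.2 with STM2457 (log2 fold change -0.03, SE 0.08, adjusted p = 0.721). In NGP it rose 2.24-fold, from 27.4, 23.4 and 23.0 CPM to 54.2, 57.0 and 54.2 (1.17, SE 0.11, adjusted p = 0.000113). CTSA shares 21.1% of its exon length with PLTP, which was lower in both lines, at -1.22 and -0.64. CTSB (chr8:11842524-11869448), the cysteine protease cathepsin B, had 88.2, 72.0 and 81.3 CPM with DMSO and 132, 114 and 118 with STM2457 in NGP (0.59, SE 0.11, adjusted p = 0.00348), and was at -0.08 in SK-N-BE2 (adjusted p = 0.433). HEXA, a subunit of beta-hexosaminidase, rose in NGP from 23.5, 19.2 and 18.7 CPM to 29.8, 29.5 and 30.9 (0.56, SE 0.12, adjusted p = 0.00731).

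The 4 enzymes and saposins that fell in SK-N-BE2 were GAA, CTSL, PSAP and CTSD. GAA (chr17:80101556-80119881, plus strand), the lysosomal alpha-glucosidase, had 122, 108 and 125 CPM with DMSO and 74.9, 73.7 and 76.2 with STM2457 there (log2 fold change -0.69, SE 0.08, adjusted p = 1.23e-05). For NGP the values were 187, 142 and 155 CPM with DMSO and 120, 141 and 117 with STM2457 (-0.36, SE 0.13, adjusted p = 0.0548), and without the first DMSO library the GAA value was -0.24 (adjusted p = 0.0433). CTSL, cathepsin L, had 37.7, 46.4 and 38.6 CPM with DMSO and 31.1, 29.5 and 30.9 with STM2457 in SK-N-BE2 (-0.46, SE 0.10, adjusted p = 0.0015).

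PSAP (chr10:71816298-71851325, minus strand), the precursor of the saposins that help degrade sphingolipids, was the most abundant of the 37 per kilobase of exon, at 277 CPM per kb in SK-N-BE2 DMSO and 115 in NGP DMSO. It had 860, 968 and 821 CPM with DMSO and 723, 672 and 701 with STM2457 in SK-N-BE2 (a log2 fold change of -0.37, SE 0.09, adjusted p = 0.00391). NGP values were 404, 338 and 359 CPM with DMSO and 402, 376 and 381 with STM2457 (0.08, adjusted p = 0.567). CTSD, cathepsin D, was at -0.34 in SK-N-BE2 (adjusted p = 0.0107), a call lost in the joint fit (adjusted p = 0.318) and without STM2457 replicate 2, and shares 42.2% of its exon length with another counted gene. CTSZ rose in SK-N-BE2 on few reads, 4, 4 and 9 with DMSO against 21, 18 and 15 (1.62, SE 0.55, adjusted p = 0.0234), and 5 of 13 alternative fits lost the call. With halved counts, or a mean of at least 1 CPM required, CTSZ dropped out of the test.

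The CLEAR element was looked for in RefSeq promoters (GRCh38.p14, 250 bases before to 50 after each start), which were matched to 33 of the 37 genes. Its palindromic core TCACGTGA, which reads the same on both strands and contains the E-box CACGTG, stood in the promoters of 5 of the 33 genes, ATG3, CTSA, GAA, LAMP1 and MCOLN1, and in 344 of all 35116 promoters (0.98%). By gene it was found in 15.2% of the 33 and in 1.69% of 15085 counted genes with a promoter. CACGTG was found in 7 of the 33 genes (21.2%), adding ATG14 and CTSD, against 10.95% of the 15085 genes, and in 7.26% of all promoters. TTGCATCA, a composite site of ATF4, was in none of the 33 and in 0.866% of all promoters. The stretches that hold the core are printed 5′ to 3′ on the gene's strand, from 88 bases before the start, with TCACGTGA in capitals, to show its place and number of copies.
ATG3, chr3:112561951-112562050, minus strand: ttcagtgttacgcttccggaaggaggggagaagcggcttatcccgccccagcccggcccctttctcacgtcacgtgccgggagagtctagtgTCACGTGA
CTSA, chr20:45891247-45891346, plus strand: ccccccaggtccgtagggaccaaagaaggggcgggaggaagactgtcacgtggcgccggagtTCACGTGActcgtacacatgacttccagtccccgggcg
GAA, chr17:80101493-80101592, plus strand: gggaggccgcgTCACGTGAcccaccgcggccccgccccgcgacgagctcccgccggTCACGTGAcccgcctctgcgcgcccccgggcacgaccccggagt
LAMP1, chr13:113297151-113297250, plus strand: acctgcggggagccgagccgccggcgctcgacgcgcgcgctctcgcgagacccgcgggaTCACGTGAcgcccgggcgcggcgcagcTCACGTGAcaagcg
MCOLN1, chr19:7522536-7522635, plus strand: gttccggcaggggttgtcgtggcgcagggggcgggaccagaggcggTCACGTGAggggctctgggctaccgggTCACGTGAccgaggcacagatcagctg
GAA, LAMP1 and MCOLN1 carried 2 copies in these stretches and ATG3 and CTSA 1. Of these 5 genes, LAMP1 and MCOLN1 rose in both lines, CTSA rose in NGP, ATG3 fell in NGP and GAA fell in SK-N-BE2. A match describes letters in the reference and is not evidence of binding.

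The difference in response (SK-N-BE2 less NGP) was called for 11 of the 37 genes (29.7%), against 30.9% of 14731 genes tested. It was positive for 6 and negative for 5, against 17.0% and 13.9% of all genes. The fall was larger in NGP for TFEB (log2 difference 1.74, SE 0.24, adjusted p = 0.000101), OPTN (1.48, SE 0.18, adjusted p = 3.23e-05) and MAP1LC3B (1.08, SE 0.12, adjusted p = 1.83e-05). WIPI1 (1.64, SE 0.25, adjusted p = 0.000264) and ATG3 (0.93, SE 0.14, adjusted p = 0.000249) fell in NGP and were not called in SK-N-BE2. Lower in SK-N-BE2 relative to NGP were CTSA (-1.19, SE 0.12, adjusted p = 9.07e-06), SQSTM1 (-0.92, SE 0.14, adjusted p = 0.00032), CTSB (-0.66, SE 0.13), CTSL (-0.58, SE 0.16) and PSAP (-0.44, SE 0.13, adjusted p = 0.0195). GABARAPL1 was also called, but it passed the filter of this fit only through its SK-N-BE2 counts, so nothing is read from its call. Its fitted difference of 5.11 (SE 1.31, adjusted p = 0.0112) depends on the prior count, since all NGP STM2457 libraries were at 0 reads. The PSAP call was lost without SK-N-BE2 STM2457 replicate 2 or NGP STM2457 replicate 1. Without the first NGP DMSO library 19 genes were called, the same 11 with ULK1, ULK2, ATG9A, LAMP1, CTSD, GAA, HEXA and GUSB. Calls over all genes rose as well in that fit, to 6274 from 4549, so nothing is read from the rise about the 37.

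**Figure D3:**
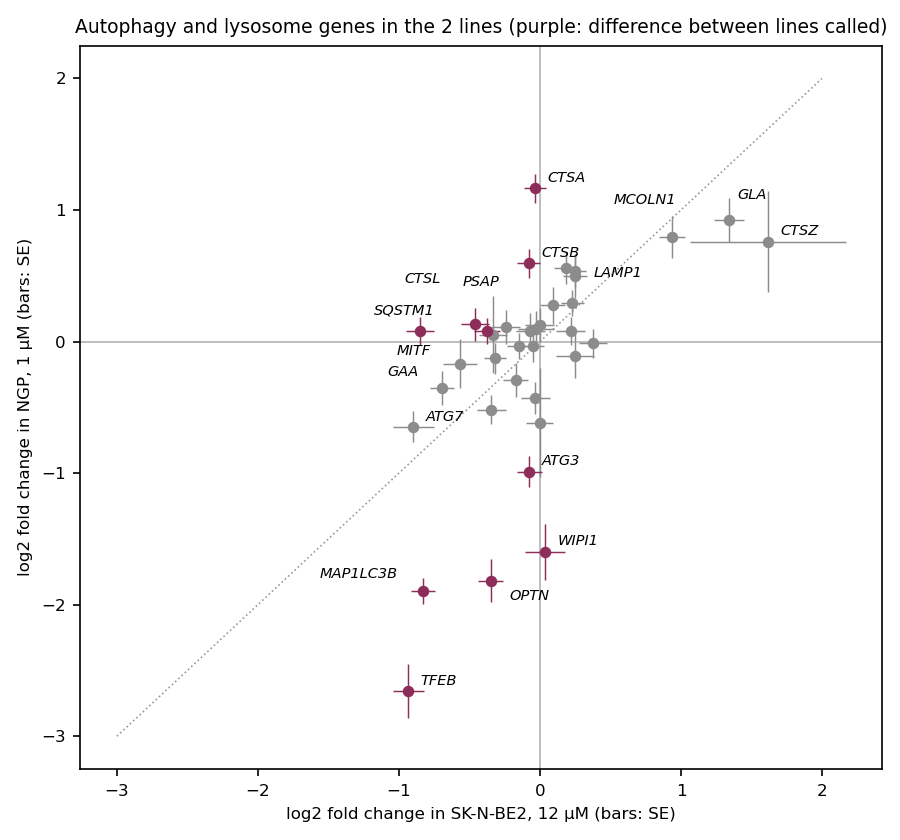
Log2 fold change in SK-N-BE2 (horizontal, 12 µM) against NGP (vertical, 1 µM) for the 36 genes tested in both lines, bars: SE, with the dotted line at equal change and purple points where the difference was called. TFEB, MAP1LC3B, OPTN and WIPI1 lie far below the dotted line and CTSA and SQSTM1 above it.

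Wider lists held 157 other genes of the same pathways in the files. In SK-N-BE2, 154 were tested, 43 rose and 36 fell (51.3% called). In NGP, 152 were tested, 34 rose and 30 fell (42.1%). Both shares were close to those of all genes, 54.7% and 41.7%. Without the first NGP DMSO library 57 rose and 41 fell, 64.5% against 57.3% of all genes. The counts of each list below stand beside 26.9% of all genes higher and 27.8% lower in SK-N-BE2, and 19.4% and 22.2% for NGP. Counts without the first NGP DMSO library stand beside 3805 higher and 4092 lower of 13776 genes in that fit. Nothing is read from any of these counts about a list.

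Of the list of other selective autophagy receptors, 7 fell and 1 rose of 16 in SK-N-BE2. In NGP 6 fell and 3 rose of 15 (6 and 5 without the first DMSO library). The list also holds TBK1 and WDR81, which are not cargo receptors themselves. The rise in SK-N-BE2 was that of WDR81, and those in NGP were of WDR81, TBK1 and NCOA4. CCPG1, a receptor for the endoplasmic reticulum, had 164, 177 and 142 CPM with DMSO and 58.3, 59.7 and 55.1 with STM2457 in SK-N-BE2 (log2 fold change -1.52, adjusted p = 3.59e-08), and fell by 1.40 on the log2 scale in NGP. CALCOCO2, which encodes the receptor NDP52, had 104, 99.2 and 85.9 CPM with DMSO and 36.4, 36.2 and 38.5 with STM2457 in SK-N-BE2 (-1.42, adjusted p = 5.47e-08), and fell by 0.72 in NGP. WDR81 rose, by 0.82 and 0.72. Among autophagosome formation genes 5 fell and 1 rose of 14 in SK-N-BE2 and 4 fell and 1 rose in NGP (7 and 2 without the first DMSO library), with WDR45 (14.4% of its exon length shared) at -0.59 and -0.91 and ATG101, a ULK complex subunit, at -1.08 in NGP.

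Of the other lysosomal hydrolases, 11 rose and 5 fell of 33 in SK-N-BE2 (48.5% called) and 11 rose and 1 fell of 32 in NGP (37.5% called; 13 and 2 without the first DMSO library). CTSV, a cathepsin close to CTSL, rose in each line, with log2 fold changes of 1.11 and 1.21. In NGP, TPP1, a lysosomal peptidase, rose from 24.4, 28.6 and 27.7 CPM to 57.0, 60.2 and 66.7 (1.19, adjusted p = 0.000122), and CTSF rose by 1.07. In SK-N-BE2, TPP1 was at -0.09 (adjusted p = 0.47), and CTSH and AGA fell by 1.27 and 1.03. Of the 16 subunits of the V-ATPase, the proton pump of the lysosome, 7 rose and 2 fell in SK-N-BE2 and 5 rose and 1 fell in NGP (9 and 2 without the first DMSO library).

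ATP6V0A2, a membrane subunit of that pump, moved in opposite directions. Its mean was 20.6 ± 1.52 CPM (SD, n = 3) with DMSO and 45.7 ± 1.79 with STM2457 in SK-N-BE2, a log2 fold change of 1.11, and 65.7 ± 11.5 CPM against 34.4 ± 1.28 in NGP, a log2 fold change of -0.93. The edgeR adjusted p was 5.61e-07 and 0.00109. ATP6V1C1 rose in both, by 0.51 and 0.66. Of the 9 genes that sort enzymes to the lysosome, 7 rose and 2 fell in SK-N-BE2, with SORT1 and GGA3 at 0.75 each, and 3 rose and 2 fell in NGP, with GGA2 at 0.81.

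Of the genes of mTORC1 and its amino acid inputs, 8 rose and 8 fell of 28 in SK-N-BE2 and 2 rose and 6 fell of 27 in NGP (10 and 9 without the first DMSO library). DDIT4 and SESN2, stress-induced inhibitors of mTORC1, fell most: DDIT4 had log2 fold changes of -4.40 (SK-N-BE2) and -2.80 (NGP), and SESN2 of -3.44 and -3.52. DEPTOR, an mTOR-binding inhibitor, fell by 2.20 in NGP and rose by 0.60 in SK-N-BE2. In other lists, 2 fell and 2 rose of 12 fusion genes in SK-N-BE2 and 2 fell and 3 rose of 13 in NGP (3 and 5 without the first DMSO library). Of 19 other lysosomal membrane genes 5 rose and 4 fell in each line, or 8 and 6 in NGP without that library. Of 7 other ATG8 and conjugation genes tested, 1 rose and 1 fell in SK-N-BE2 and 1 rose and 4 fell in NGP (2 and 4 without it).

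**Figure D4:**
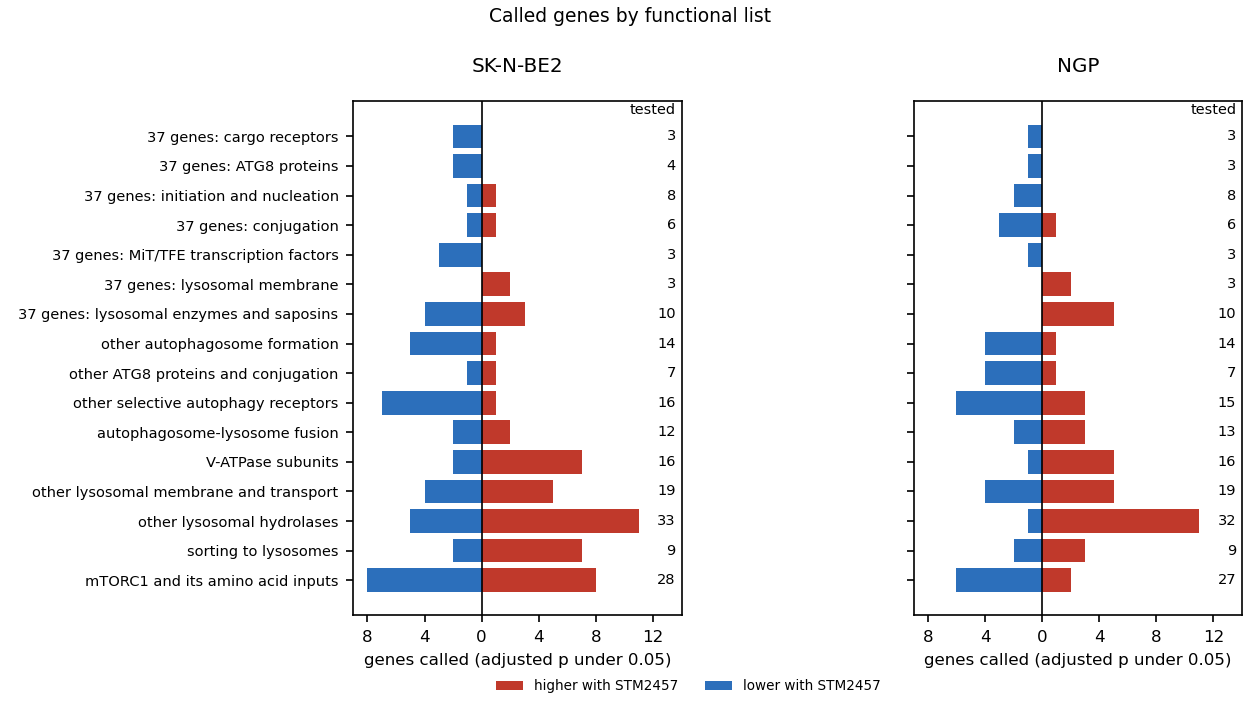
Number of genes called higher (red, right) or lower (blue, left) with STM2457 at an edgeR adjusted p under 0.05 in each role of the 37 genes and in each wider list, with the number tested at the right. For cargo receptors and ATG8 proteins the bars point to the left in both lines, and other lysosomal hydrolases had 11 rises in each line.

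Counting limits some of these genes. Reads were counted without regard to strand, and reads in exons shared with another counted gene were left uncounted. Over 10% of exon length was shared in this way for 9 of the 37: SQSTM1, GABARAP, BECN1, ATG9A, WIPI1, ATG7, CTSA, CTSD and GLA. ATG14 and HEXA also pass 10% when compared with all exons of GENCODE 44, which makes 11 genes whose values are uncertain to that extent. GABARAP, with 35.4% shared, may be counted low.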

How the data were processed

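RNA was measured in 12 libraries, grouped by line, treatment and replicate from their titles. Libraries were made from poly(A)-selected TRIzol RNA with SMART chemistry, per the labels' protocols. The authors made whole-number counts of reads per gene with featureCounts 2.0.5 (paired mode, exons grouped by gene name, protein-coding genes of GENCODE 33 on GRCh38), per the file headers. No strand, multi-mapping or pair-counting option was set, so a fragment can add 2 to a count: 72.1% to 75.4% of counts from 1 to 20 were even. Per the submitters' processing notes, FastQC 0.11.5, Trimmomatic 0.36, HISAT2 2.1.0 and Subread 1.5.3 were also used, a version that differs from the header's.

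The 6 libraries of a line were fitted together in edgeR 4.0.16 under R 4.3.3. Genes passed filterByExpr at a minimum count of 10, scaling was TMM, and the quasi-likelihood test was used with Benjamini-Hochberg adjustment over all genes at 0.05. Differences between lines were a contrast over 12 libraries. Each standard error is the log2 fold change over the square root of F, and the code was tested on simulated data. CPM used TMM factors of all libraries. Alternatives were DESeq2 1.42.0 and its size factors, upper-quartile factors, other filters, a replicate block, robust dispersion, halved counts, a joint fit and leaving out each library. The 37 genes and the wider lists were chosen with earlier results of these data known. Named were all 37 genes, with full statistics for the 12 called in each line with the largest changes, those called in both lines and the 6 largest differences. From the wider lists, genes named came from the 3 largest called changes per list and line with a mean of at least 5 CPM. Exons were compared with the counted annotation and GENCODE 44. No library was merged. Depth was 47242379 to 58159937 reads.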

Additional observations from a re-analysis of the deposited data

Results flagged for a closer look

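By the test of the difference itself (edgeR, adjusted p under 0.05), the response to STM2457 differed between the lines for 11 of the 37 genes. That share, 29.7%, was close to the 30.9% called among the 14731 genes tested. Values are log2 differences, SK-N-BE2 minus NGP. Positive differences were found for TFEB (1.74), WIPI1 (1.64), OPTN (1.48), MAP1LC3B (1.08), ATG3 (0.93) and GABARAPL1 (5.11, with 0 reads in every NGP STM2457 library). GABARAPL1 passed the filter only through its SK-N-BE2 counts, and nothing is read from its call. Negative differences were found for CTSA (-1.19), SQSTM1 (-0.92), CTSB (-0.66), CTSL (-0.58) and PSAP (-0.44). Dose and sequencing run changed with the line and cannot be told apart from it. Groups of 3 libraries were not searched for single outlying values.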

How the results depend on the processing

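Alternatives were run for the called values of the 37 genes and of the wider-list genes taken by the naming rule, and none of these changed direction. METTL3, DEPTOR in SK-N-BE2 and the partner genes were not rerun. Values of the 37 genes kept their call in 716 fits and lost it in 42. Leaving out 1 library, the count of the 37 genes called higher in SK-N-BE2 (7) ranged from 3 to 8, with 3 without STM2457 replicate 1 and 4 without replicate 2 or 3. The count called for the difference between lines (11) ranged from 10 to 19, the highest without NGP DMSO replicate 1. Over all genes that count (4549) ranged from 3701 to 6274, the highest in the same fit. Called genes numbered 7665 in SK-N-BE2 (6497 to 7849 when 1 library was left out) and 5671 in NGP (3816 to 7897, the highest without DMSO replicate 1). With a replicate block, 6 of the 37 rose and 14 fell in SK-N-BE2 and 7 rose and 8 fell in NGP, and 11 differed between lines. ATG16L1 lost its call in both lines and ULK1 gained one in SK-N-BE2. Same-numbered libraries did not deviate together (the SK-N-BE2 pairs had correlations of -0.06, 0.09 and 0.03, the NGP pairs 0.01, -0.07 and 0.02), so the numbers were not taken as pairs. Low counts limit GABARAPL1 and ULK2 in NGP and CTSZ in both lines, and 3 replicates per group limit small changes.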

Other observations

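With DMSO, levels of some of these genes differed widely between the lines. Levels are given here per kilobase of exon with no test, since line and sequencing run cannot be told apart. CTSB, cathepsin B, had 358, 400 and 374 CPM in the SK-N-BE2 DMSO libraries, at 51.6 CPM per kb second of the 37, and 88.2, 72.0 and 81.3 CPM in those of NGP. In DMSO libraries MAP1LC3B was high in both lines, at 47.0 and 39.2 CPM per kb, while ULK2, a kinase that starts autophagy, was at 1.61 and 0.057. CTSZ was near the bottom in both, at 0.053 and 0.122 CPM per kb, and GABARAPL1 was the lowest of the 37 in NGP, at 0.029. With STM2457 in NGP, TFEB was at 0.68 CPM per kb, below GABARAPL2 at 24.9 and LAMP1 at 22.4.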
